A study of Homo sapiens with 6 samples.

Results

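The mitotic genes described here are 40 genes whose products drive or carry out cell division, from entry into mitosis to the separation of the daughter cells. They were taken by name from a list of 40 symbols, and a symbol was kept where its row held a value in all 6 libraries, which was the case for 40 of 40. The deposited tables list 60325 genes, of which 17388 have 6 values. The cells were THP-1, an established human line derived from a monocytic leukaemia, which divides in suspension culture and is used as a model of monocytes. RNA was sequenced from cells labelled as controls and from cells given recombinant human interleukin-6 (IL-6), a cytokine, at 6, 24 and 48 h. Each of the 6 combinations of agent and time was 1 library, so no condition was repeated. The sources used here give neither the dose of IL-6, nor what the controls received, nor whether libraries came from separate cultures. All groups share 1 cell line, and p-values reflect the scatter of these 6 libraries alone, which may be technical.

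Transcripts of most mitotic genes are made in late S phase and G2 and peak as the cell divides. Cyclin B with CDK1 starts mitosis, the kinases PLK1, Aurora A and NEK2 build the spindle, and the spindle assembly checkpoint holds back the anaphase-promoting complex until every chromosome is attached. In resting and early G1 cells the DREAM complex represses many of these genes through a short promoter word called the CHR, for cell cycle genes homology region, and in G2 the factors B-MYB (MYBL2) and FOXM1 act through the same element. Nearby CCAAT boxes bind the factor NF-Y.

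The promoters below are examples chosen from the members whose RNA was highest at 24 h, with MYBL2 as the member that went the other way. They are not a ranking: CDC25B and CENPF, not shown, had larger estimates to 24 h than CDC20. Each is the stretch of 130 bases before the start site in RefSeq, build GRCh38.p14, on the plus strand and 5′ to 3′. Capitals mark CCAAT boxes (CCAAT, or ATTGG where the box lies on the other strand) and CHR words (TTTGAA or TTCGAA).
KIF20A: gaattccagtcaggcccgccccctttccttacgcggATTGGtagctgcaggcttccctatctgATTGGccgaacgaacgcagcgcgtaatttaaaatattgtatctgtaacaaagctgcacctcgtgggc
CCNB1: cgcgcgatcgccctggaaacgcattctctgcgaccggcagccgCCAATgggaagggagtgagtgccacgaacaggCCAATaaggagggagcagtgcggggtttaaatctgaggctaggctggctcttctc
CCNB2: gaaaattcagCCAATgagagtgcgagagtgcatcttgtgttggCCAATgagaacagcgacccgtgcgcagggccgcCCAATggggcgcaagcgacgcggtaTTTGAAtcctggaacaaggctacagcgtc
PLK1: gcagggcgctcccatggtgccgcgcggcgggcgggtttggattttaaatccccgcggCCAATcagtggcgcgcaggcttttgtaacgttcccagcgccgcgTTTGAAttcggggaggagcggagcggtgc
CDC20: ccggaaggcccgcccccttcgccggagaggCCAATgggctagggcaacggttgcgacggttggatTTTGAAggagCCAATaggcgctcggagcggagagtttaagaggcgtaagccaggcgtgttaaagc
HMMR: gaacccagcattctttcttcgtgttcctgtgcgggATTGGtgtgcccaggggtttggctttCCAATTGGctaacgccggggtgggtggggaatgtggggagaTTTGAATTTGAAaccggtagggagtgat
MYBL2: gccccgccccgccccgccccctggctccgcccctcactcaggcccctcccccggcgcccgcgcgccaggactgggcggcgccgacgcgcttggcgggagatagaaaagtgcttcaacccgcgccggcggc
They lie at chr5:138178982-138179111 (KIF20A), chr5:69167020-69167149 (CCNB1), chr15:59105016-59105145 (CCNB2), chr16:23678759-23678888 (PLK1), chr1:43358851-43358980 (CDC20), chr5:163460502-163460631 (HMMR) and chr20:43666984-43667113 (MYBL2). The CDC20 stretch ends at the base before the gene's start in the deposited tables, whereas those of KIF20A, PLK1 and HMMR lie inside the gene's interval there and the others cross its start. CCNB1 and KIF20A hold 2 CCAAT boxes each and neither TTTGAA nor TTCGAA in these stretches. Other forms of the CHR were not searched, so this does not show that they lack one. PLK1 holds 1 box that begins 73 bases before the start site, at -73, and a CHR word at -29. CCNB2 has boxes at -120, -87 and -54 and a CHR word at -29. In HMMR, 2 of the 3 boxes overlap on opposite strands and 2 CHR words stand side by side. MYBL2 holds neither word.

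Both words were searched on both strands from 250 bases before to 50 after each RefSeq start, in 43 windows that matched 33 of the 40 members. FOXM1, TTK, BIRC5, TPX2, BUB3, UBE2C and AURKA matched no window. A CCAAT box stood in 76.7% of the member windows and in 34.6% of all 35116 windows, and a CHR word in 62.8% against 16.4%. Both stood in 55.8% of member windows and in 6.4% of all windows. At least 2 boxes stood in 48.8% of member windows against 10.8%. CENPE, KIF2C and MYBL2 held neither word in any window. A match is a description of letters, and no binding was measured. The 22 members with both words in a window had a median log2 difference between 24 and 6 h of 0.96. The 11 matched members without both had 0.73, with ranges that overlapped (0.08 to 1.43 and -0.41 to 1.58). In the tests described below, 11 of the 22 and 5 of the 11 rose to 24 h, where 1.63% of all genes did. To 48 h 7 of the 22 and 3 of the 11 fell, where 0.414% of all genes did. KIF20A and CCNB1, with the highest estimates to 24 h, are among the 11.

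Values are log2 values that the authors centred on each gene, so that 0 is the gene's mean over the 6 libraries and a difference of 1 is 2-fold. Levels of different genes cannot be compared from them, and the read depth is unknown. Tests used limma on all 13517 genes with 6 values that passed a filter on low level. All 40 members were kept, but for 19 of them no level could be recovered. These 19 were treated as high, so the filter did not test their level. Each ± is limma's standard error (SE). A value was listed for between 22000 and 23108 genes a library, most often in the control (23108) and IL-6 (22733) libraries of 24 h. What part this has in the values at 24 h was not tested. The median of all genes tested lay between -0.05 and 0.09 in each of the 6 libraries. All 12 monocytic markers had a value in all 6 libraries, against 2 of 8 T and NK cell markers, 2 of 8 epithelial and fibroblast markers and 0 of 6 erythroid and platelet markers. Of the 5 B cell markers 4 had 6 values.

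The mitotic genes were highest at 24 h with and without IL-6. Their median was -0.23 in the control library of 6 h, 0.53 at 24 h and -0.16 at 48 h. With IL-6 it was -0.43, 0.41 and -0.12. Both 24 h libraries lay above the other 4 for 34 of the 40 members, an order that 11.5% of all genes tested showed. The exceptions were MAD2L1, MYBL2, ANLN, INCENP, BUB3 and CKS2. Both 6 h libraries lay below the other 4 for 20 members, against 18.3% of all genes. All 20 were among the 34, which places both of their 48 h libraries between those of 6 and 24 h. That order follows from the counts above and is not a separate result. It was found in 3.32% of all genes.

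**Figure D1:**
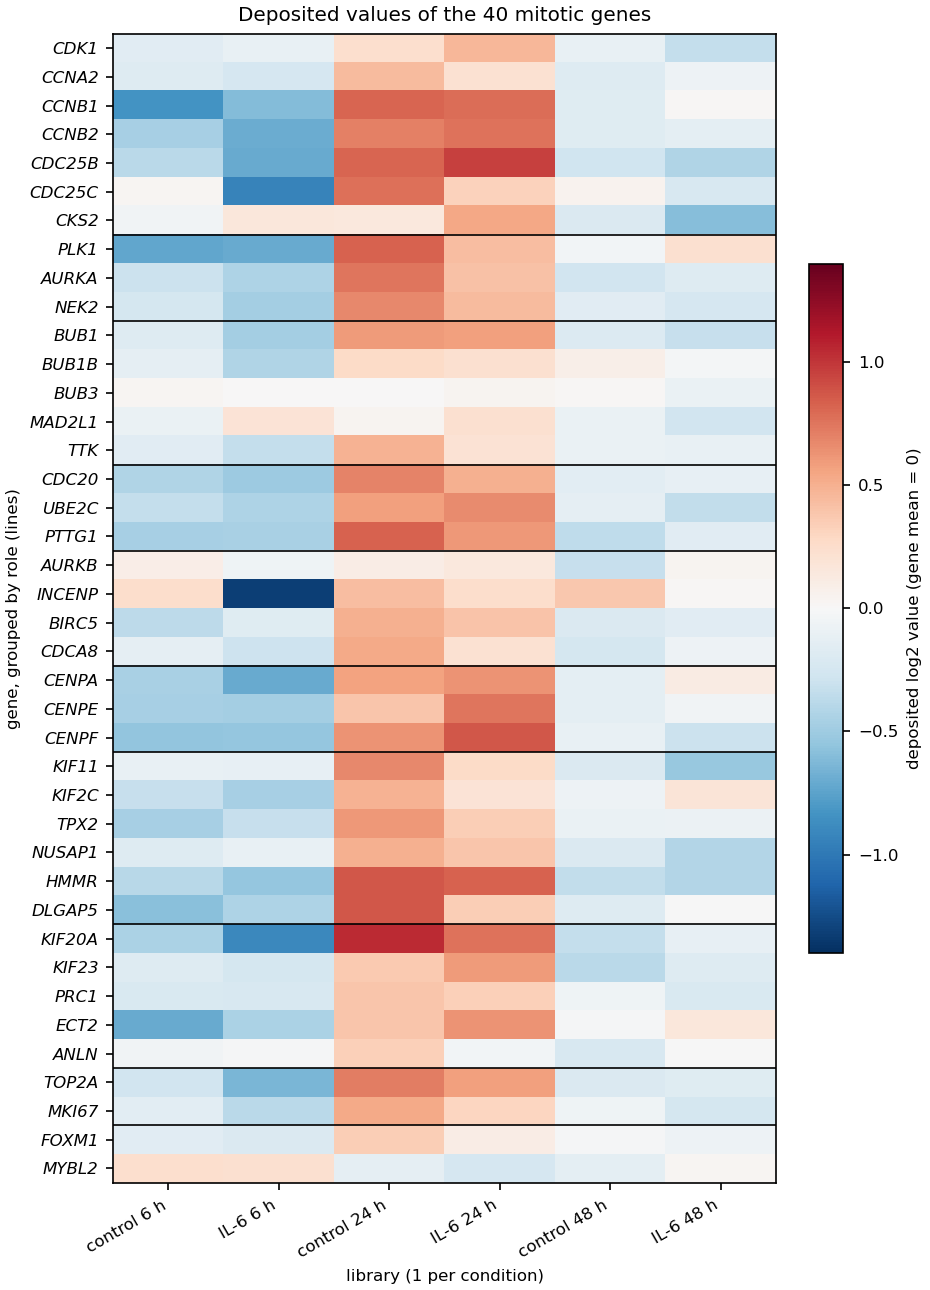
Deposited log2 value (colour; each gene's mean is 0) of the 40 mitotic genes (rows, lines part the role groups) in the 6 libraries (columns, 1 per condition). The columns of 24 h are red for nearly every gene, MYBL2 is blue there, and INCENP is lowest with IL-6 at 6 h at -1.32.

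In the control arm, the median member was 0.79 higher at 24 h than at 6 h on the log2 scale, or 1.73-fold, against a median of 0.15 over all genes tested. In the IL-6 arm it was 0.81, or 1.75-fold, against 0.06. At least 1.5-fold higher at 24 h were 29 members in the control arm, where 18.6% of all genes were, and 25 in the IL-6 arm, where 16% were. No member was 1.5-fold lower at 24 h in either arm, where 5.62% of all genes were in the control arm and 8.03% in the IL-6 arm. Of the members, 37 were higher at 24 h in both arms, which share no library, against 5720 of all 13517 genes tested. Across the 40 members the differences of the arms had a Pearson correlation of 0.74, and across all genes tested of 0.31. Genes are not independent replicates, so this is a description.

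From 24 to 48 h the median member was lower by 0.70 in the control arm (all genes -0.05) and by 0.56 in the IL-6 arm (all genes -0.00). At least 1.5-fold lower were 26 members in the control arm, where 9.93% of all genes were, and 19 in the IL-6 arm, where 13.7% were. None was 1.5-fold higher, where 6.87% of all genes were in the control arm and 12.3% in the IL-6 arm. In both arms 37 members were lower at 48 h than at 24 h, against 4221 of all 13517 genes tested. The Pearson correlation of the arms was 0.54 across members and 0.17 across all genes tested. The later difference shares the 24 h libraries with the earlier one, so that a high value at 24 h enters both. In RNA from a whole culture, a larger share of dividing cells and more RNA per cell cannot be told apart.

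**Figure D2:**
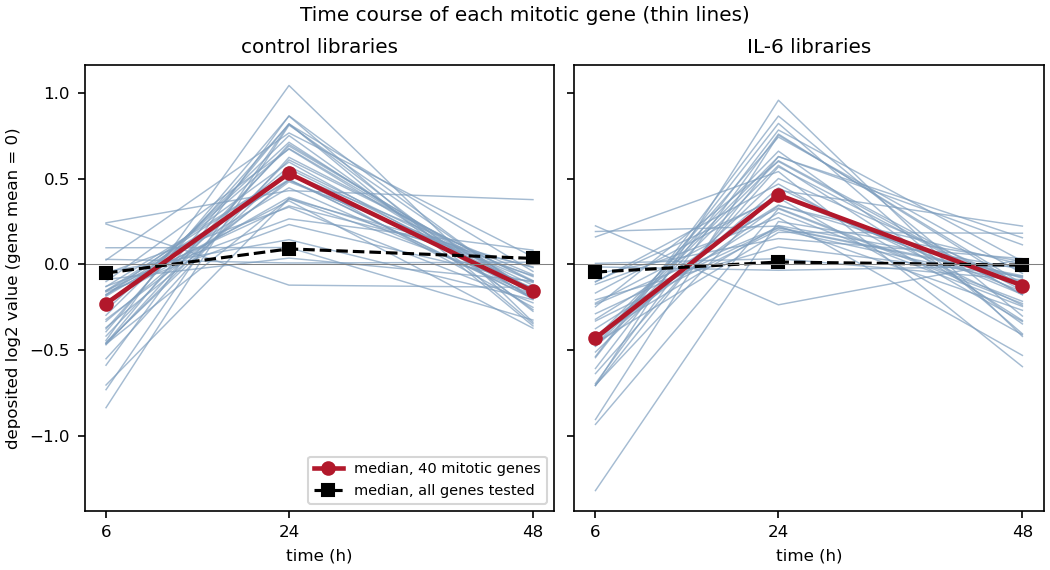
Deposited log2 value of each mitotic gene (thin lines) against time in hours in the control and IL-6 libraries, with the median of the 40 members (red circles) and of all genes tested (black squares). The red median runs from -0.23 to 0.53 to -0.16 in the controls and from -0.43 to 0.41 to -0.12 with IL-6, while the black median stays between -0.05 and 0.09.

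Fitted over both arms, 20 of the 40 members rose from 6 to 24 h and 0 fell at a limma adjusted p under 0.05, where 1.63% of all genes rose and 0.311% fell. The estimate was positive for 39 members and for 61.9% of all genes tested, with a median of 0.88 beside 0.11 over all genes. At an unadjusted p under 0.05 there were 33 members, of which MYBL2 alone had a negative estimate. Of all 13517 genes, 1712 were higher and 665 lower at that level. From 24 to 48 h, 12 members fell and 0 rose, where 0.414% of all genes fell and 0.104% rose. The median was -0.63 beside -0.03 over all genes, and 30 members, all with negative estimates, had an unadjusted p under 0.05. At that level 551 of all 13517 genes were higher and 1039 lower. Calls rest on the 24 h libraries and on the variance model: without the control library of 24 h 4 members rose (CCNB1, CCNB2, CENPF and HMMR) and 0 fell later, without the IL-6 library of 24 h 10 rose and 0 fell later, and without the variance trend no gene of the 13517 passed in any contrast of time or agent. With equal library medians 17 members rose and 6 fell later, and 143 of all genes rose and 71 fell from 6 to 24 h instead of 220 and 42.

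**Figure D3:**
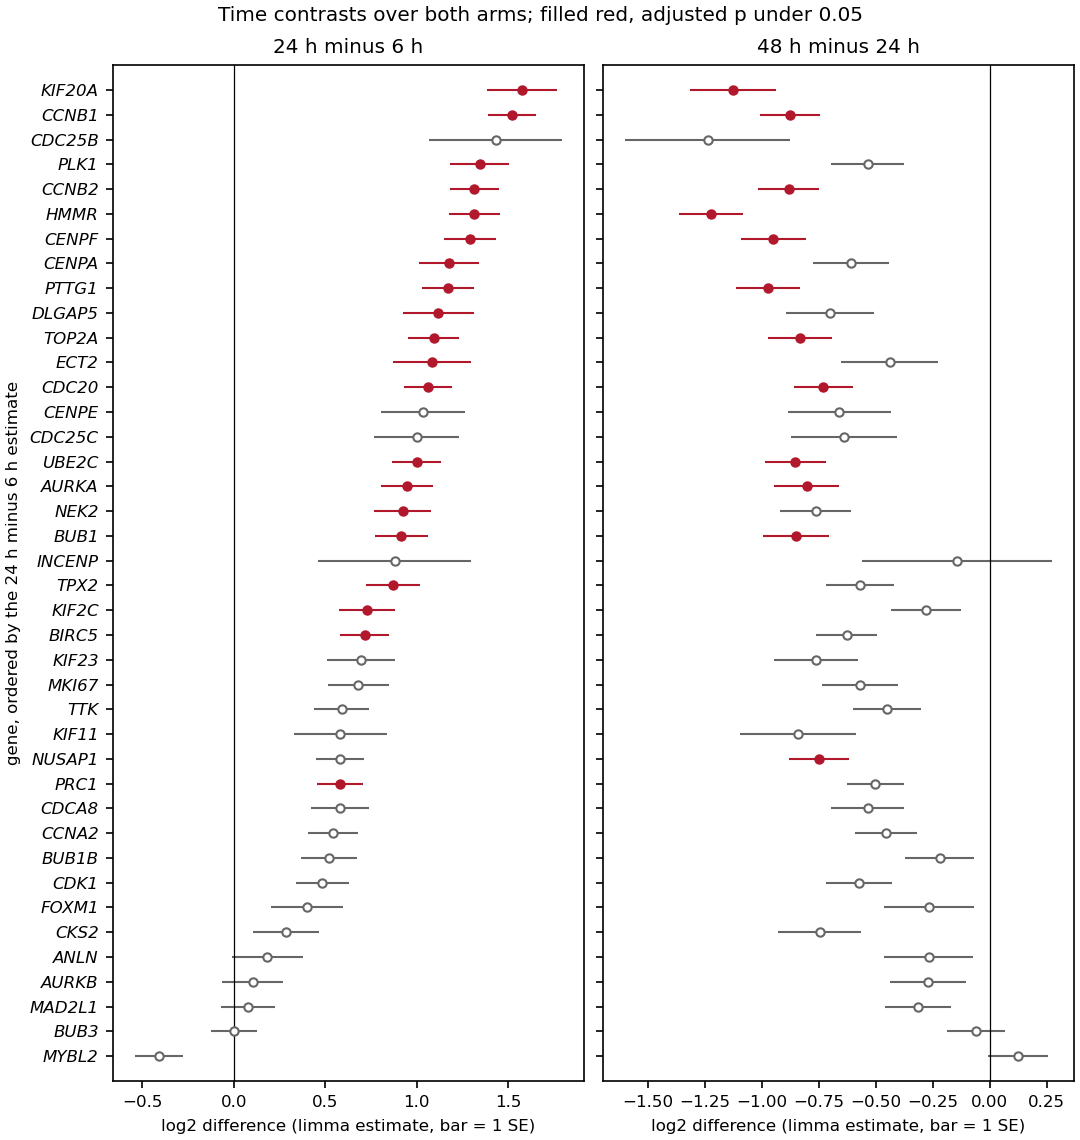
limma log2 difference of each mitotic gene between 24 and 6 h (left) and between 48 and 24 h (right) over both arms, with bars of 1 SE; filled red points have an adjusted p under 0.05. Estimates run from -0.41 (MYBL2) to 1.58 (KIF20A) on the left and from -1.24 (CDC25B) to 0.13 (MYBL2) on the right, and both panels use the 24 h libraries.

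Among CDK1 and its partners, both B-type cyclins rose to 24 h and fell to 48 h. CCNB1, which encodes the main cyclin of mitotic entry, was at -0.84 in the control and -0.61 in the IL-6 library of 6 h, at 0.81 and 0.79 at 24 h, and at -0.17 and 0.02 at 48 h. The 3 times did not overlap, with 48 h in the middle. It rose by 1.52 ± 0.13 to 24 h, or 2.87-fold (limma adjusted p = 0.00166), and fell by 0.88 ± 0.13 to 48 h (adjusted p = 0.0236). CCNB2, the second B-type cyclin, was at -0.47 and -0.70 at 6 h, 0.70 and 0.76 at 24 h, and -0.16 and -0.13 at 48 h, in control and IL-6 libraries. It showed the same order of times, with a rise of 1.31 ± 0.13 (limma adjusted p = 0.00206) and a fall of 0.88 ± 0.13 (adjusted p = 0.0236).

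The other 5 members of this group did not pass the test in either step. CDC25B and CDC25C encode the phosphatases that activate CDK1. CDC25B went from -0.38 and -0.71 at 6 h to 0.82 and 0.96 at 24 h and -0.27 and -0.42 at 48 h, so that the 24 h libraries stood apart while those of 6 and 48 h overlapped. Its estimates, 1.43 ± 0.36 and -1.24 ± 0.36, were among the largest of the members, but its SE was large too (limma adjusted p = 0.0802 and 0.199). CDC25C had 1.001 ± 0.23 to 24 h (limma adjusted p = 0.0606). CDK1 itself was at -0.16 and -0.10 at 6 h, 0.23 and 0.47 at 24 h, and -0.11 and -0.33 at 48 h. Its 24 h libraries were the highest, and the difference of 0.48 ± 0.14 missed the threshold (limma adjusted p = 0.119). CCNA2, the S and G2 phase cyclin, was at 0.54 ± 0.14 and CKS2, a small CDK-binding subunit, at 0.29 ± 0.18.

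All 3 mitotic kinases of the Polo, Aurora A and NEK families rose to 24 h, where 1.63% of all genes did. PLK1, the Polo-like kinase that acts at centrosomes, kinetochores and in cytokinesis, was at -0.73 in the control and -0.70 in the IL-6 library of 6 h, at 0.82 and 0.43 at 24 h, and at -0.04 and 0.22 at 48 h. Its 3 times did not overlap. It rose by 1.35 ± 0.16, or 2.54-fold (limma adjusted p = 0.00434), and the later difference of -0.54 ± 0.16 missed the threshold (adjusted p = 0.211). In the control arm PLK1 was lower by 0.86 from 24 to 48 h and in the IL-6 arm by 0.21. AURKA, the centrosomal Aurora kinase, rose by 0.95 ± 0.14 and then fell by 0.80 ± 0.14. NEK2, a kinase that parts the centrosomes, rose by 0.92 ± 0.16 (limma adjusted p = 0.0168), and its later value was -0.76 ± 0.16 (adjusted p = 0.0829). The rise of NEK2 was kept in 8 of 13 alternative settings.

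The activator, E2 enzyme and substrate of the anaphase-promoting complex in the list all rose to 24 h and fell to 48 h. These were 3 of 3 in each step, where 1.63% of all genes rose and 0.414% fell. Both steps share the 24 h libraries. The falls of CDC20 and UBE2C were kept in 5 of 12 alternative settings and that of PTTG1 in 6 of 12. CDC20, which activates the complex, was at -0.42 and -0.51 at 6 h, 0.69 and 0.50 at 24 h, and -0.15 and -0.11 at 48 h, in control and IL-6 libraries. Its 3 times did not overlap. It rose by 1.06 ± 0.13 (limma adjusted p = 0.00445) and fell by 0.73 ± 0.13 (adjusted p = 0.0423). UBE2C, the ubiquitin-conjugating enzyme of the complex, rose by 0.999 ± 0.13 and fell by 0.85 ± 0.13. PTTG1, which encodes securin, the inhibitor of separase that the complex destroys, rose by 1.17 ± 0.14 and fell by 0.97 ± 0.14.

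The spindle assembly checkpoint genes differed among themselves. BUB1, a checkpoint kinase at kinetochores, was at -0.18 and -0.48 at 6 h, 0.60 and 0.58 at 24 h, and -0.19 and -0.33 at 48 h, and the 6 and 48 h libraries overlapped. It alone of the 5 passed the test, with a rise of 0.92 ± 0.14 (limma adjusted p = 0.0128) and a fall of 0.85 ± 0.14 (adjusted p = 0.0364). TTK, the kinase MPS1 that starts checkpoint signalling, was at 0.59 ± 0.15 from 6 to 24 h and BUB1B, which encodes BUBR1 of the mitotic checkpoint complex, at 0.52 ± 0.15 (limma adjusted p = 0.0805 and 0.112). MAD2L1, the checkpoint protein MAD2 that binds CDC20, lay between -0.27 and 0.22 in the 6 libraries, with an estimate to 24 h of 0.08 ± 0.15. Its 2 libraries of 48 h, at -0.10 and -0.27, were the lowest, while those of 6 and 24 h overlapped. BUB3, an adaptor that carries BUB1 to kinetochores, spanned from -0.09 to 0.03, a range of 1.09-fold, and its estimate was 0.00 ± 0.13.

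Of the chromosomal passenger complex, which corrects faulty attachments, BIRC5 rose to 24 h. This gene encodes survivin and was at -0.37 and -0.17 at 6 h, 0.50 and 0.40 at 24 h, and -0.20 and -0.16 at 48 h. Only the 24 h libraries stood apart. The rise was 0.72 ± 0.13 (limma adjusted p = 0.0266) and was kept in 5 of 12 alternative settings. CDCA8, which encodes borealin, was at 0.58 ± 0.16 (limma adjusted p = 0.0982) and AURKB, the kinase of the complex, at 0.10 ± 0.17. INCENP, its scaffold, had the largest SE of the 40 members, 0.88 ± 0.42. From 24 to 48 h no member of this complex passed the test, though all estimates were negative, from -0.63 to -0.14. The lowest was that of BIRC5 (limma adjusted p = 0.088).

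CENPA, the histone variant of centromeres, and CENPF, a large kinetochore protein, rose to 24 h. CENPF was at -0.55 and -0.54 at 6 h, 0.63 and 0.87 at 24 h, and -0.10 and -0.30 at 48 h, and the times did not overlap. It rose by 1.29 ± 0.14 (limma adjusted p = 0.00282) and fell by 0.95 ± 0.14 (adjusted p = 0.0236). CENPA rose by 1.18 ± 0.17, and its later value of -0.61 ± 0.17 did not pass (limma adjusted p = 0.172). CENPE, a kinetochore motor, was at 1.03 ± 0.23 with a limma adjusted p of 0.0511, just short of the threshold of 0.05.

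Of the 6 spindle motors and microtubule proteins, 4 rose to 24 h, where 1.63% of all genes did. HMMR, a microtubule-binding protein that also acts as a hyaluronan receptor, was at -0.39 and -0.54 at 6 h, 0.87 and 0.82 at 24 h, and -0.35 and -0.41 at 48 h. The 24 h libraries stood far above the others, and 6 and 48 h overlapped. It rose by 1.31 ± 0.14 (limma adjusted p = 0.00267) and fell by 1.22 ± 0.14, or 2.33-fold (adjusted p = 0.0105), the largest fall among the called members. DLGAP5, which stabilises kinetochore fibres, rose by 1.12 ± 0.19, TPX2, the activator of Aurora A, by 0.87 ± 0.15, and KIF2C, a kinesin that takes microtubules apart, by 0.73 ± 0.15. KIF2C kept this call in 3 of 12 alternative settings. NUSAP1, a spindle bundling protein, was at 0.58 ± 0.13 to 24 h (limma adjusted p = 0.0571) and fell by 0.75 ± 0.13 to 48 h (adjusted p = 0.0423). KIF11, the motor that pushes spindle poles apart, was at 0.58 ± 0.25.

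Among the genes of the central spindle and cytokinesis, KIF20A had the widest range. This kinesin, which brings PLK1 to the central spindle, was at -0.44 and -0.91 at 6 h, 1.05 and 0.76 at 24 h, and -0.34 and -0.11 at 48 h, in control and IL-6 libraries. The highest library lay 3.87-fold above the lowest and the times did not overlap. It rose by 1.58 ± 0.19, or 2.98-fold (limma adjusted p = 0.00434), and fell by 1.13 ± 0.19 (adjusted p = 0.0357). ECT2, the exchange factor that activates RHOA at the cleavage site, rose by 1.08 ± 0.21 and PRC1, which bundles central spindle microtubules, by 0.58 ± 0.13 (limma adjusted p = 0.0353 and 0.0488). ECT2 kept its call in 4 of 13 and PRC1 in 3 of 12 alternative settings. KIF23, a centralspindlin motor, was at 0.70 ± 0.19 and ANLN, the scaffold anillin, at 0.18 ± 0.20, and neither passed.

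TOP2A, the topoisomerase that untangles chromosomes, and MKI67, the proliferation marker Ki-67 that coats them, were both highest in the 24 h libraries. TOP2A rose by 1.09 ± 0.14 and fell by 0.83 ± 0.14 (limma adjusted p = 0.0054 and 0.0348). MKI67 was at -0.15 and -0.38 at 6 h, 0.53 and 0.30 at 24 h, and -0.06 and -0.25 at 48 h, and its 6 and 48 h libraries overlapped. Its difference of 0.68 ± 0.17 did not pass (limma adjusted p = 0.0731).

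Neither transcription factor of the mitotic programme passed the test in either step. FOXM1 was at -0.15 and -0.21 at 6 h, 0.34 and 0.10 at 24 h, and -0.01 and -0.07 at 48 h, which gave 0.40 ± 0.20 (limma adjusted p = 0.329). MYBL2 was the one member highest in a 6 h library, at 0.24 and 0.23 at 6 h, -0.12 and -0.24 at 24 h, and -0.13 and 0.03 at 48 h. Both 6 h libraries lay above the other 4, and the estimate to 24 h was -0.41 ± 0.13, which did not pass (limma adjusted p = 0.146).

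Between 6 and 48 h, 2 of the 40 members rose. PLK1 rose by 0.81 ± 0.16 and CCNB1 by 0.65 ± 0.13 (limma adjusted p = 0.0254 and 0.0272), and 0 of 40 fell, where 2.53% of all genes rose and 1.46% fell. The median estimate of the members was 0.14 beside 0.07 over all genes. Leaving out the control library of 6 h, the IL-6 library of 6 h or the IL-6 library of 48 h left 0 rises, and with equal library medians the calls over all genes were 288 higher and 289 lower instead of 342 and 197. CKS2 had the lowest estimate, -0.46 ± 0.18, with its IL-6 library of 48 h at -0.60 and the other 5 between -0.21 and 0.54.

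A wider list of 115 other genes of mitosis was tested in the same fit. From 6 to 24 h 10 of 115 rose and 2 fell, where 1.63% of all genes rose and 0.311% fell, and the median was 0.21 beside 0.11 over all genes. From 24 to 48 h 3 fell and 0 rose, where 0.414% of all genes fell and 0.104% rose, and the median was -0.26 beside -0.03. Of the 26 genes for spindle, motors and centrosome 6 rose, among them KIF18A (1.63 ± 0.27), a kinesin that dampens chromosome movement, and ASPM (1.22 ± 0.20), a spindle pole protein. Of the 35 kinetochore genes NUF2 rose by 0.72 ± 0.14 and CENPM fell by 0.70 ± 0.15. DEPDC1 and KNSTRN rose to 24 h and fell to 48 h, and CDKN3, a phosphatase that acts on CDKs, fell to 48 h by 0.92 ± 0.14. The other gene that fell to 24 h was PKMYT1, which encodes a kinase that inhibits CDK1. Of 18 genes on a list for MuvB, DREAM and B-MYB partners, 0 rose and 1 fell, where 1.63% of all genes rose and 0.311% fell. The gene that fell was E2F1, by 0.79 ± 0.15 (limma adjusted p = 0.0304). It is on the list but is not itself a subunit of MuvB or DREAM. The median of this list was -0.13 beside 0.11. E2F1 was at 0.29 and 0.44 at 6 h, -0.51 and -0.34 at 24 h, and 0.07 and 0.06 at 48 h. Its 24 h libraries were the lowest, where those of most members were the highest.

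IL-6 gave no called difference among the mitotic genes over the 3 time-matched pairs. With limma, 0 of 40 rose and 0 fell, where 0.252% of all genes rose and 0.0074% fell. At an unadjusted p under 0.05 there was 1 member, and of all 13517 genes 503 were higher and 714 lower. The median over members was -0.06 beside -0.03 over all genes. Estimates were positive for 12 members and negative for 28, where 44% of all genes had a positive one. The member at the unadjusted level was CDC25C. It was at 0.03 in the control and -0.93 in the IL-6 library of 6 h, 0.77 and 0.33 at 24 h, and 0.04 and -0.23 at 48 h. Its IL-6 library was the lower at each time, by 0.96, 0.44 and 0.27, and the estimate was -0.56 ± 0.19 (limma adjusted p = 0.396). For CCNB1 the estimate was 0.13 ± 0.11, with a 95% interval from -0.11 to 0.37, and for MKI67 it was -0.21 ± 0.14, with an interval from -0.52 to 0.09. A value that missed the threshold does not show that IL-6 and control cells were alike.

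At single times each difference rests on 1 control and 1 IL-6 library and has no test. Over the members the median difference at 6 h was -0.06, that at 24 h -0.11 and that at 48 h 0.02. Over all genes tested it was 0.02, -0.07 and -0.04. With equal library medians the members' value was -0.035 at 24 h and 0.061 at 48 h. At least 1.5-fold lower with IL-6 at 6 h were 2 members, CDC25C and INCENP, and 0 were higher, where 8.57% of all genes were lower and 8.52% higher. At 24 h 0 members were past 1.5-fold either way, where 12.9% of all genes were lower and 7.91% higher. At 48 h it was again 0 in each direction, against 9.2% lower and 8.67% higher. INCENP was at 0.24 in the control and -1.32 in the IL-6 library of 6 h, 0.43 and 0.25 at 24 h, and 0.38 and 0.02 at 48 h. A single library, IL-6 at 6 h, was low and the other 5 lay between 0.02 and 0.43. INCENP had a low recovered mean level of 3.43, where those of the 21 members with one ran from 3.20 to 61.6.

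**Figure D4:**
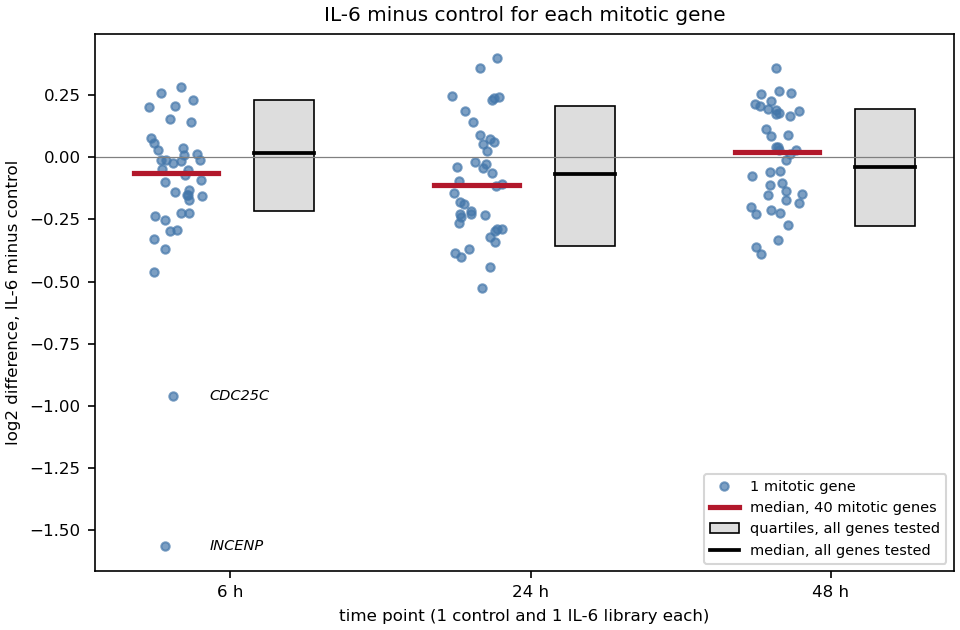
log2 difference of IL-6 minus control for each mitotic gene at 6, 24 and 48 h (points, 1 control and 1 IL-6 library each, spread sideways at random), with the members' median (red line) and the quartiles and median of all genes tested (box). The members' medians are -0.06, -0.11 and 0.02, and CDC25C and INCENP are lowest at 6 h.

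The direction was the same at all 3 times for 12 members. The 3 IL-6 libraries lay below their controls for 11 members, against 18.2% of all genes: MKI67, CDC25C, NEK2, INCENP, KIF11, TTK, BUB1, PRC1, FOXM1, BUB1B and HMMR. They lay above for 1, ECT2, against 12.6% of all genes, by 0.26, 0.25 and 0.17 (estimate 0.23 ± 0.17). The IL-6 effect at 6 h against its mean at 24 and 48 h gave 0 members higher and 0 lower in limma, where 0.148% of all genes were higher and 0.0814% lower. At an unadjusted p under 0.05 there were also 0 members, and of all 13517 genes 279 were higher and 253 lower. INCENP had the lowest estimate at -1.29 ± 0.68.

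The library kits named in the labels do not mark the strand, and 11 members overlap another gene with 6 values, 9 of them one on the other strand. KIF20A, PRC1 and CDC20 are shown as examples chosen after their values were seen, and the other overlapping genes are not given here. KIF20A overlaps CDC23 and BRD8, which differed between 24 and 6 h by -0.06 and 0.72 in the control arm and by -0.17 and 0.17 in the IL-6 arm, against 1.49 and 1.66 for KIF20A. PRC1-AS1, on the other strand of PRC1, differed by 0.63 in the control and 0.39 in the IL-6 arm, beside 0.61 and 0.56 for PRC1. The other gene that overlaps PRC1, ENSG00000284946, differed by 0.37 and -0.11. What part shared reads have in these values was not tested. Pseudogene copies with 6 values are listed for CDC20, AURKA, MAD2L1, UBE2C and MKI67. The copy CDC20P1 was higher at 24 h than at 6 h by 2.08 in the control arm and by 1.61 in the IL-6 arm, beside 1.11 and 1.01 for CDC20. In the same order of arms, the copy of UBE2C differed by 0.47 and 1.02 and that of AURKA by 1.01 and -0.16. The copy of MAD2L1 differed by 1.66 and -1.51 and that of MKI67 by -0.42 and -0.45. The sources used here do not say how reads were shared between gene and copy.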

How the data were processed

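RNA-seq was analysed in 6 THP-1 libraries, 1 for each agent (control or IL-6) and time (6, 24 or 48 h). SMART-seq v4 amplified the RNA and Nextera XT made the libraries, per the labels' protocols. The authors deposited 1 log2 value per gene and library, without a pseudocount, centred so that each gene's mean is 0. The build was GRCh38 (hg38) per the submitters' processing notes, and the aligner, the counting program and the scaling were not given in the sources used here. The depth is unknown, so no counting interval is given.

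Levels, used only to filter genes and set the variance trend, were recovered up to 1 arbitrary scale from whole-number ratios between libraries (step 0.001, relative tolerance 2e-06 up to 5000 steps and 6e-07 above) for 90.4% of the 17388 genes with 6 values. The other 1662 were treated as high, among them 19 members. limma 3.58.1 in R 4.3.3 fitted time and agent to the deposited log2 values of the 13517 genes whose mean level reached 1. Variances were shrunk robustly with a trend on level (2 residual and a median of 8.08 prior degrees of freedom), and p-values were Benjamini-Hochberg adjusted over all 13517 genes at 0.05. The agent effect used the 3 time-matched pairs, and time effects the 1 control and 1 IL-6 library of each time. Single pairs of libraries gave differences with no test and a count past 1.5-fold. The scripts were tested on simulated data. Any of the 40 members could be named, with values for those called, the 5 highest and 5 lowest of a comparison and the leading members of a role. Of other lists, up to 6 called genes each were named, those with the largest difference. The members and lists were chosen with earlier results of these data known. Alternatives were the level filter, log2(level + 1), equal library medians, variance settings, terms for time or agent, pairs left out and, added after the data were seen, each library left out.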

Additional observations from a re-analysis of the deposited data

How the results depend on the processing

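For the 40 mitotic genes, IL-6 minus control over pairs gave 0 higher and 0 lower in each alternative run. The 20 rises from 6 to 24 h became 0 without the variance trend and 4 to 25 when 1 library was left out. The 12 falls from 24 to 48 h became 1 with no level filter, 6 with equal library medians, 0 without the variance trend, 1 with variances not shrunk robustly, 1 with no term for agent, and 0 to 13 with 1 library left out. The 2 rises from 6 to 48 h became 1 with no level filter, 0 without the variance trend, 1 when not robust, 1 with no term for agent, and 0 to 3 with 1 library left out, where 0 to 1 fell. HMMR kept its rise to 24 h in 12 of 13 settings and its fall in 10 of 13, and each other fall was kept in 4 to 6 settings. The cause of these changes was not tested.

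log2(level + 1) could be run for the 21 members with a recovered level. Among them it gave 10 rises from 6 to 24 h, against 8 on the deposited scale, and 3 falls from 24 to 48 h, against 3. It gave 0 rises from 6 to 48 h but covers neither PLK1 nor CCNB1, so it does not bear on them. For IL-6 minus control its medians at 6, 24 and 48 h were -0.15, -0.22 and -0.011, and those of the same 21 on the deposited scale were -0.16, -0.23 and -0.011, so the sign at 48 h, opposite to that of all 40, comes from the choice of members. The control median from 6 to 24 h was 0.70, against 0.77 for the same 21.

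With equal library medians the members' IL-6 minus control median was -0.035 at 24 h and 0.061 at 48 h, and the medians from 6 to 24 h were 0.65 in controls and 0.75 with IL-6. Past 2-fold were 1 member at 6 h, lower with IL-6 (3.43% of all genes were), 14 from 6 to 24 h in controls (7.25%) and 17 with IL-6 (7.07%), all higher, and 6 from 24 to 48 h in controls (3.77%) and 5 with IL-6 (5.33%), all lower. The time-matched pair is the block of the IL-6 fit, and with no term for time the count stayed at 0. Unknown depth limits what can be said of small differences, and 1 library per condition leaves 2 residual degrees of freedom.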
